A study of Homo sapiens with 9 samples.

Results

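The genes described here encode the core of the human RNA interference machinery. They are AGO1, AGO2, AGO3, AGO4, DICER1, DROSHA, DGCR8, XPO5, TARBP2 and TNRC6A, a list of 10 named genes taken by symbol from the 26636 genes present in the tables of all 9 libraries. All 10 had a mean of at least 1 FPKM (fragment counts scaled by exon length and by the mapped reads of the library) over the 9 libraries and were among the 13014 genes tested. The libraries are RNA sequencing of the human breast cancer line BT549 by label, a line known as triple-negative and mesenchymal-like, here wild type and without drug treatment. In all, 3 groups of 3 were compared, transfected with a control siRNA (siNC) or with siWFDC21P-1 or siWFDC21P-2, both directed at the pseudogene transcript WFDC21P. Every group, controls included, received 5 µl of siRNA from a 10 µM stock and was harvested 48 h later. The comparison bears on 2 questions for these genes: their level in the cells that received an siRNA, and their difference from the siNC library of the same cell background.

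The libraries did not form 1 background, although all carry the same cell line label. By average linkage on expression over the genes outside these 10 and the wider pathway list below, they formed 3 sets. Cell type markers were not left out of this grouping. Set 1 held siNC replicate 1 with siWFDC21P-1 replicates 1 and 2, set 2 held siNC replicate 2 with siWFDC21P-1 replicate 3, and set 3 held siNC replicate 3 with the 3 siWFDC21P-2 libraries. Pearson's r of 2 libraries was 0.927 to 0.986 where they shared a set, and 0.655 to 0.742 where they did not. The mesenchymal markers given for BT549 were present in set 3, with VIM at 162 to 310 FPKM and CDH2 at 14.7 to 18.1 FPKM. FN1, on the same list, did not mark set 3, at 4.56 to 9.13 FPKM there and 5.91 to 11.2 FPKM in set 2. In set 1 VIM was 38.5 to 41.0 FPKM and CDH2 at most 0.00698 FPKM. In set 2 VIM was at most 0.699 FPKM, CDH2 was listed at 0, and the epithelial gene EPCAM reached 209 to 228 FPKM, against at most 0.0731 FPKM elsewhere. Summed over 8 mesenchymal markers the level was 709 to 748 FPKM in set 3, 47.9 to 52.9 in set 1 and 6.85 to 12.9 in set 2, and over 8 epithelial markers it was 7.01 to 10.2, 174 to 384 and 1080 to 1680 FPKM. In set 1 nearly all of the epithelial sum came from KRT8 (93.4 to 232 FPKM) and KRT18 (80.4 to 151 FPKM). The other epithelial markers were at most 1.16 FPKM there, and KRT18 was lower in set 2 (53.8 to 90.6 FPKM). Summed over 3 leukocyte markers the level was 0.519 to 0.938 FPKM in set 1, 29.6 to 36.1 in set 2 and 1.21 to 8.86 in set 3. In set 2 CD14 alone made up that sum and PTPRC was listed at 0, and PTPRC was at most 0.16 FPKM elsewhere. A sum over 3 endothelial markers was at most 1.68 FPKM. The part of these markers in the results was not tested. Percentages of control, and the fit of both siRNAs together, therefore use the siNC library of the same set. The fits of single siRNAs have the naming style of the libraries in the model. In them siWFDC21P-1 stands against siNC replicates 1 and 2 of sets 1 and 2, and siWFDC21P-2 against siNC replicate 3 alone. The style does not separate sets 1 and 2. The SE and p-values of these fits, and of the difference between the siRNAs, thus include the gap between those sets. For the genes that stood out, values without set 2 are given too, and for some those within set 3, which has 1 siNC library. Within set 3, siWFDC21P-2 replicate 1 was close to siNC replicate 3 across genes, with a mean chi-square per gene of 21.3. Replicates 2 and 3 of siWFDC21P-2 were close to each other (16.9), and the other pairs of set 3 gave 111 to 132. Depth was 28.1 to 29.7 M reads in sets 1 and 2 and 16.3 to 17.4 M in set 3. In bulk RNA, fewer cells of a type and less RNA per cell cannot be told apart.

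WFDC21P itself was measured at 3.08, 0.129 and 6.87 FPKM in siNC replicates 1, 2 and 3 (99, 4 and 123 reads). It was 0.0629, 0.767 and 0.227 FPKM in siWFDC21P-1 replicates 1 to 3 (2, 25 and 7 reads), and 4.13, 3.32 and 2.12 FPKM in siWFDC21P-2 (79, 61 and 40 reads). The groups overlapped in both comparisons, and siNC replicate 2 lay below 5 of the 6 knockdown libraries. Over groups the difference from siNC was -3.01 FPKM for siWFDC21P-1 (exact two-sided permutation test, p = 0.3) and -0.169 FPKM for siWFDC21P-2 (p = 1.0, same exact test), where 3 against 3 libraries cannot give a p below 0.1. Against the siNC of the same set it stood at 2.04% and 24.9% in set 1 (95% counting intervals 0.244 to 7.58% and 15.4 to 38.9%). In set 3 it stood at 60.2%, 48.3% and 30.8% (44.8 to 80.5%, 34.9 to 66.2% and 21.0 to 44.4%). In set 2 both libraries held fewer than 10 reads, and the interval of 44.8 to 821% spans 100%.

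The machinery acts in steps. The nuclear Microprocessor, made of the RNase III enzyme DROSHA and its RNA-binding partner DGCR8, cuts the hairpin precursor out of a primary microRNA transcript. Exportin 5 (XPO5) carries the precursor to the cytoplasm, where the RNase III enzyme DICER1, with the partner encoded by TARBP2, trims it to a duplex. A strand of that duplex is held by an Argonaute protein (AGO1 to AGO4), and the scaffold TNRC6A links Argonaute to mRNA deadenylation. A transfected synthetic siRNA enters late in this path: it needs no Microprocessor cut and no export, and is loaded into Argonaute, of which AGO2 is the family member best known for cutting a matched target.

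By median level over the 9 libraries, on the FPKM scale that corrects for exon length, the order was XPO5 (19.4 FPKM), AGO2 (18.8), DROSHA (12.5), TNRC6A (12.2), DICER1 (11.2), DGCR8 (8.29), TARBP2 (7.79), AGO1 (5.21), AGO4 (4.79) and AGO3 (1.88). The ranges of all neighbours in this order overlapped. Within each library AGO4 was above AGO3 in 9 of 9, whereas XPO5 was above AGO2 in only 3 of 9. The highest library was a median of 2.49 times the lowest over the 10 genes, compared with 3.61 times over all tested genes. Only TARBP2 spanned more than 5-fold, at 9.71-fold, whereas 37.0% of all tested genes did. The narrowest range was that of DGCR8, at 1.4-fold.

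**Figure D1:**
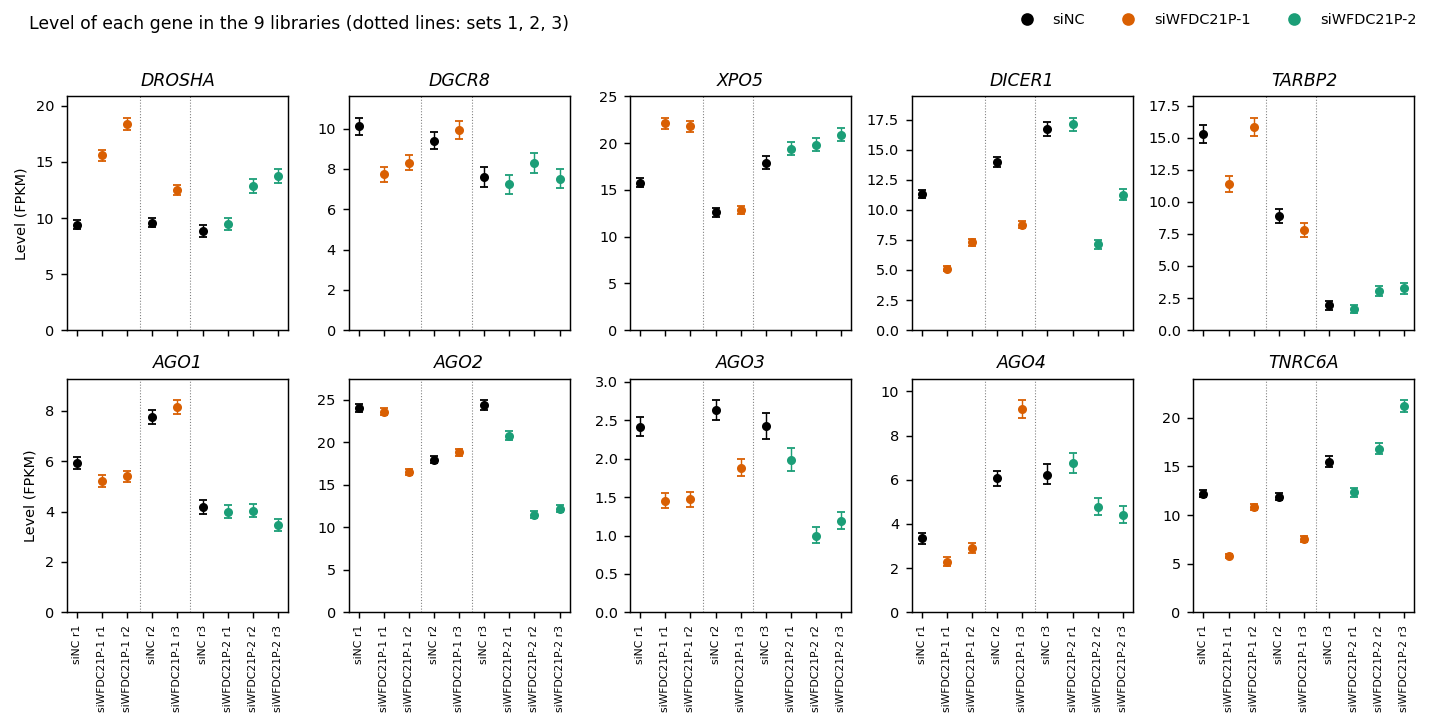
Level of each of the 10 genes in FPKM (y axis, from 0) in the 9 libraries (x axis), ordered by expression set with dotted lines between sets 1, 2 and 3; points are single libraries and bars are 95% counting intervals. AGO3 lies at 2.41 to 2.63 FPKM in the 3 siNC libraries and at or below 1.99 FPKM in every knockdown library, and TARBP2 steps down from set 1 to set 3.

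Some levels lay apart by set. siWFDC21P-2 was in set 3 alone, so across sets the part of this siRNA cannot be told apart from that of the set. TARBP2 was 11.4 to 15.8 FPKM in set 1, 7.79 to 8.87 in set 2 and 1.63 to 3.26 in set 3, so that no set overlapped another. AGO1 was highest in set 2 (7.75 to 8.15 FPKM), intermediate in set 1 (5.21 to 5.95) and lowest in set 3 (3.47 to 4.17). AGO4 was lowest in set 1 (2.30 to 3.35 FPKM) and XPO5 lowest in set 2 (12.6 to 12.8 FPKM). TNRC6A was highest in set 3 (12.3 to 21.2 FPKM), but only just. The counting interval of its lowest library there overlapped that of siNC replicate 1 in set 1 (12.2 FPKM). For the other 5 genes (AGO2, AGO3, DICER1, DROSHA and DGCR8) no set lay apart from both others. A set above all other libraries was also seen in 14.1% of tested genes for set 1, 19.1% for set 2 and 15.1% for set 3, and a set below all others in 13.6%, 12.6% and 20.6%. With 1 or 2 of 10 genes in each of these classes, the machinery genes were near those shares. No test was made between sets, since expression defined them.

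No machinery gene passed the test in any comparison. In limma on log2(FPKM + 1) with Benjamini-Hochberg adjustment over 13014 genes at 0.05, 0 of 10 were called for siWFDC21P-1 against siNC, for siWFDC21P-2 against siNC, for both siRNAs against the siNC of their set, and for the difference between the siRNAs. Of all tested genes, 0.0%, 0.0%, 0.00768% and 0.0% were called in these comparisons. At an unadjusted p under 0.05 the counts were 1, 0, 3 and 0 of the 10, beside 5.44%, 1.46%, 14.4% and 1.24% of all tested genes. The count model limma-voom on recovered reads also called 0 of 10 in each, with the same 1, 0, 3 and 0 at an unadjusted p under 0.05. With the set in place of the naming style, siWFDC21P-1 against siNC gave 0 of 10 called beside 0.0231% of all tested genes (3 genes), and 1 of 10 at an unadjusted p under 0.05 (DROSHA) beside 13.8%. The median log2 fold change of the 10 for both siRNAs was -0.08, against 0.03 over all tested genes. The comparisons share their siNC libraries and are not independent of each other. siWFDC21P-1 was in sets 1 and 2 alone and siWFDC21P-2 in set 3 alone. A difference between the siRNAs thus cannot be told apart from one between the sets.

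Single genes nevertheless stood on one side of the control in many libraries. Relative to the siNC of their set, 2 of 10 were higher in all 6 knockdown libraries (DROSHA and XPO5), as were 10.8% of all tested genes, and 1 of 10 was lower in all 6 (AGO3), as were 7.92%. Without set 2 the counts over the remaining 5 libraries were 2 higher (14.0% of all tested genes) and 3 lower (AGO1, AGO2 and AGO3, beside 11.7%). Compared across sets, AGO3 was the only one of the 10 whose 6 knockdown libraries all lay outside the range of the 3 siNC libraries, below it, and 0.43% of all tested genes did the same. For siWFDC21P-1 alone, DROSHA lay above all siNC libraries (6.65% of all tested genes) and DICER1, AGO3 and TNRC6A below them (2.94%). For siWFDC21P-2, XPO5 lay above (8.77%) and AGO1 and AGO3 below (9.51%).

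**Figure D2:**
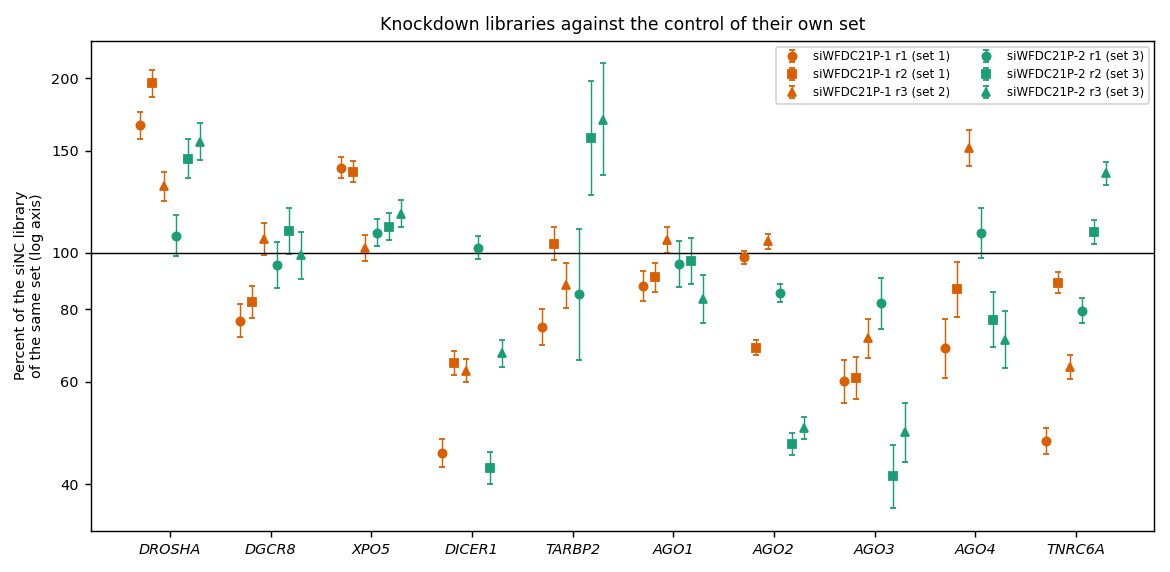
Level of each gene in each knockdown library as a percentage of the siNC library of the same set (y axis, log scale; line at 100%), with 95% counting intervals as bars; colours mark the siRNA and symbols the replicate. DROSHA lies at 107 to 196% and AGO3 at 41.2 to 81.9%, each on 1 side of the line in all 6 libraries, while siWFDC21P-2 replicate 1 lies nearer 100% than replicates 2 and 3 for DROSHA, DICER1, AGO2 and AGO3. That library was closer to its control than replicates 2 and 3 were across genes in general, so this is not particular to these genes.

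DROSHA (chromosome 5, 31400497 to 31532196, minus strand, GRCh38), the catalytic subunit of the Microprocessor, was 9.40, 9.60 and 8.83 FPKM in siNC replicates 1 to 3. It was 15.6, 18.4 and 12.5 FPKM in siWFDC21P-1 and 9.46, 12.8 and 13.7 FPKM in siWFDC21P-2. The controls thus lay within 1 FPKM of each other in all 3 sets, and every knockdown library except siWFDC21P-2 replicate 1 lay above all of them. As a share of its set's siNC, DROSHA stood at 166% and 196% in set 1 (95% counting intervals 157 to 175% and 186 to 206%), at 130% in set 2 (123 to 138%) and at 107%, 145% and 156% in set 3, where the interval of the first (98.8 to 116%) spans 100%. In limma, both siRNAs gave a log2 fold change of 0.52 ± 0.16 (SE, adjusted p = 0.24, higher in 6 of 6 libraries). It was 0.58 ± 0.20 without set 2 (adjusted p = 0.476) and 0.39 ± 0.29 within set 3 (adjusted p = 0.831), and over all alternatives for both siRNAs its limma adjusted p ranged from 0.0735 to 1.0. The lowest of these came without siWFDC21P-2 replicate 1, where the fold change was 0.58 ± 0.13.

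DROSHA stands head to head with a neighbouring gene. Its annotated exons end 69 bases from those of C5orf22, which is transcribed in the opposite direction, and this stretch holds no exon of either gene. It is shown, on the DROSHA strand and with its match to CCAAT (here on the other strand) in capitals, because 2 genes with opposite differences flank it (RefSeq, GRCh38.p14, chr5:31532197-31532265, minus strand).
DROSHA: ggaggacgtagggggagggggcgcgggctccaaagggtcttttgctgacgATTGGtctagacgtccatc
Both strands were searched for 4 motifs: the CCAAT box, the GC box with letters GGGCGG, the TATA box with letters TATAAA, and the E-box with letters CACGTG. The CCAAT box gave the single match, and no printed matches of different motifs overlap. Of 35116 promoters in RefSeq, 12.0% held a CCAAT in the same number of bases before the start. C5orf22, looked at after its values had been seen, was 22.5, 16.9 and 15.9 FPKM in siNC, 18.5, 19.5 and 11.8 FPKM in siWFDC21P-1 and 15.7, 14.6 and 13.2 FPKM in siWFDC21P-2. It was lower than the siNC of its set in 6 of 6 libraries, at 69.4 to 98.7%, where DROSHA was higher in 6 of 6. Of all tested genes, 7.92% were lower in all 6 and 10.8% higher. The log2 fold change of C5orf22 for both siRNAs was -0.26 ± 0.12 (limma, adjusted p = 0.378), so that neither gene passed the test.

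DGCR8 (chromosome 22, 20080232 to 20111877, plus strand), which recognises the hairpin for DROSHA, was 10.1, 9.39 and 7.59 FPKM in siNC, 7.73, 8.31 and 9.92 FPKM in siWFDC21P-1 and 7.24, 8.29 and 7.52 FPKM in siWFDC21P-2. The siWFDC21P-1 libraries lay within the range of the controls, as did siWFDC21P-2 replicate 2, while siWFDC21P-2 replicates 1 and 3 lay below it. It stood at 76.4% and 82.2% of the siNC in set 1 (intervals 71.6 to 81.5% and 77.2 to 87.6%), while the intervals of the other 4 knockdown libraries all spanned 100%. The log2 fold change for both siRNAs was -0.08 ± 0.13 (limma, adjusted p = 0.785). The ratio of DROSHA to DGCR8 was 0.929, 1.02 and 1.16 in siNC replicates 1 to 3. In siWFDC21P-1 it was 2.02, 2.21 and 1.26, and in siWFDC21P-2 it was 1.31, 1.55 and 1.83, higher than the siNC of the set in 6 of 6. The ratio was formed after the values had been seen and restates the difference of DROSHA.

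The DGCR8 transcript itself carries 2 annotated microRNA hairpins, MIR3618 and MIR1306, inside its exons, and the Microprocessor is known to cut hairpins in this mRNA. The mature products are printed with the seed (bases 2 to 8) in capitals to show what lies in the counted exons (RefSeq, GRCh38.p14, chromosome 22, plus strand, from 20085797 to 20086129).
hsa-miR-3618: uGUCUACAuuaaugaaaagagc
hsa-miR-1306-5p: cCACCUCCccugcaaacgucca
hsa-miR-1306-3p: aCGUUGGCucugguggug
The 3 seeds differ from each other. The hairpins overlap 88 and 85 exonic bases of DGCR8, and neither has a listed level of its own in any library. Other genes share 9.6% of the exonic bases of DGCR8 in all, most of it an antisense gene on the opposite strand, and whether reads were counted by strand is not given in the sources used here.

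XPO5 (chromosome 6, 43522330 to 43576075, minus strand), the export receptor of precursor microRNAs, was 15.8, 12.6 and 17.9 FPKM in siNC, 22.1, 21.8 and 12.8 FPKM in siWFDC21P-1 and 19.4, 19.9 and 20.9 FPKM in siWFDC21P-2. The siWFDC21P-2 libraries lay above all controls, while siWFDC21P-1 replicate 3 of set 2 lay with its own control. Against the siNC of the set it stood at 140% and 138% in set 1 (intervals 135 to 146% and 133 to 144%), 102% in set 2 (96.9 to 107%) and 108%, 111% and 117% in set 3, with the lower bounds there at 103%, 105% and 111%. It was thus higher in 6 of 6 libraries, by over 30% only in set 1. The log2 fold change for both siRNAs was 0.23 ± 0.12 (limma, adjusted p = 0.433), and 0.30 ± 0.15 without set 2 (adjusted p = 0.514, within a range of 0.318 to 1.0 over the alternatives). It was 0.10 without siNC replicate 1. Of its exonic bases, 4.1% overlap POLR1C on the opposite strand.

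XPO5 also stands head to head with another gene, POLH, at a distance of 74 bases without an exon of either. The stretch is printed on the XPO5 strand with 2 overlapping GC boxes, read from the other strand, in capitals, for comparison with that of DROSHA (RefSeq, GRCh38.p14, chr6:43576076-43576149, minus strand).
XPO5: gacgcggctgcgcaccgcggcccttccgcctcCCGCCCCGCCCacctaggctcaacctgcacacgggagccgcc
A GC box was present in 26.6% of the 35116 promoters over the same number of bases, and the letters of the other 3 motifs are not in this window. POLH, again looked at after its values had been seen, was higher than the siNC of its set in 3 of 6 knockdown libraries and lower in 3. It stood at 68.3 to 205% of that control, and did not follow the direction of XPO5 in set 1, at 79.0% and 68.3%.

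DICER1 (chromosome 14, 95086228 to 95158010, minus strand), which cuts precursors to duplexes, was 11.3, 14.0 and 16.7 FPKM in siNC. It was 5.11, 7.30 and 8.76 FPKM in siWFDC21P-1, below every control, and 17.1, 7.14 and 11.2 FPKM in siWFDC21P-2, where replicate 1 lay above every control and replicates 2 and 3 below the lowest. Against the siNC of its set it stood at 45.2% and 64.7% in set 1 (intervals 42.8 to 47.8% and 61.5 to 67.9%), 62.7% in set 2 (59.9 to 65.6%) and 102%, 42.7% and 67.1% in set 3 (97.4 to 107%, 40.1 to 45.4% and 63.7 to 70.8%). DICER1 was thus lower in 5 of 6 libraries, beyond counting error in each, and the exception was siWFDC21P-2 replicate 1. For both siRNAs it had a log2 fold change of -0.65 ± 0.24 (limma, adjusted p = 0.29), with -0.66 ± 0.30 without set 2 (adjusted p = 0.5) and -0.54 ± 0.47 within set 3 (adjusted p = 0.831), which rests on 1 siNC library. The siWFDC21P-2 value of -0.54 was -0.83 without replicate 1 of that siRNA and -0.25 without replicate 2. Over the alternatives for both siRNAs its adjusted p ranged from 0.0795, without siWFDC21P-2 replicate 1, to 1.0.

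The 2 RNase III enzymes differed in direction. The ratio of DICER1 to DROSHA was 1.2, 1.46 and 1.9 in siNC replicates 1 to 3. It was 0.328, 0.397 and 0.7 in siWFDC21P-1 and 1.81, 0.557 and 0.819 in siWFDC21P-2. The ratio was below the control of the set in 6 of 6 libraries, although in siWFDC21P-2 replicate 1 it was within 0.1 of that control. This ratio was formed after the values had been seen, so it restates the values of the 2 genes and adds no separate result. The antisense gene DICER1-AS1 was between 0.220 and 1.24 FPKM in all libraries and was not among the tested genes. It overlaps 80 exonic bases of DICER1 (0.7%) on the opposite strand.

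TARBP2 (chromosome 12, 53500921 to 53506431, plus strand), the partner of DICER1 in loading, was 15.3, 8.87 and 1.92 FPKM in siNC, 11.4, 15.8 and 7.79 FPKM in siWFDC21P-1 and 1.63, 3.02 and 3.26 FPKM in siWFDC21P-2. The control libraries alone covered nearly the whole range, 1 in each set. Against the siNC of its set it was higher in 3 libraries and lower in 3. The set 3 values rest on 116 to 229 reads and stood at 84.9%, 158% and 170% (65.5 to 110%, 126 to 198% and 136 to 212%). The log2 fold change for both siRNAs was 0.01 ± 0.20 (limma, adjusted p = 0.989). Its sign turned negative with median-of-ratios scaling (-0.03) and in limma-voom (-0.06). DICER1 stood at 0.449 to 0.74 times the level of TARBP2 in set 1, at 1.12 and 1.58 times in set 2 and at 2.36 to 10.5 times in set 3.

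AGO2 (chromosome 8, 140520156 to 140635619, minus strand) was the leading Argonaute in every library, with 49.4 to 72.5% of the summed Argonaute FPKM. It was 24.0, 17.9 and 24.4 FPKM in siNC, 23.6, 16.5 and 18.8 FPKM in siWFDC21P-1 and 20.8, 11.4 and 12.2 FPKM in siWFDC21P-2. Its lowest values were those of siWFDC21P-2 replicates 2 and 3, at 47.0% and 50.0% of the set 3 control (45.0 to 49.1% and 47.9 to 52.2%), while replicate 1 stood at 85.3%. With siWFDC21P-1 it stood at 98.2% and 68.7% in set 1 and at 105% in set 2, so that this siRNA gave values on both sides of the control. The log2 fold change was -0.73 ± 0.39 for siWFDC21P-2 (limma, adjusted p = 1.0), -0.09 ± 0.31 for siWFDC21P-1 (adjusted p = 1.0) and -0.36 ± 0.23 for both (adjusted p = 0.499). Without siNC replicate 3 the value for both was -0.13. The difference between the siRNAs was 0.64 ± 0.49 (limma, adjusted p = 1.0), which does not separate them. The siRNAs share no set, so siRNA and set cannot be told apart in this value. Among all tested genes of a library, AGO2 stood between percentile 69.2 and percentile 86.7. The siWFDC21P-2 libraries with the lower AGO2, replicates 2 and 3, held WFDC21P at 48.3% and 30.8% of the control, and replicate 1 at 60.2%. The WFDC21P intervals of replicates 1 and 2 overlapped, and a link between the genes was not tested.

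AGO3 (chromosome 1, 35930718 to 36072500, plus strand), the least abundant Argonaute, was 2.41, 2.63 and 2.42 FPKM in siNC. It was 1.45, 1.47 and 1.88 FPKM in siWFDC21P-1 and 1.99, 1.00 and 1.19 FPKM in siWFDC21P-2. The 3 controls agreed across the 3 sets (mean 2.49 ± 0.12 FPKM, SD, n = 3), and the highest knockdown library was below the lowest control. As a share of the siNC of its set AGO3 stood at 60.1% and 60.9% in set 1, 71.3% in set 2 and 81.9%, 41.2% and 49.1% in set 3, and the counting interval lay below 100% in all 6 (354 to 1117 reads in the knockdown libraries). With both siRNAs its log2 fold change was -0.46 ± 0.15 (limma, adjusted p = 0.253), with -0.51 ± 0.19 without set 2 (adjusted p = 0.488) and -0.54 ± 0.32 within set 3 (adjusted p = 0.831). Over all alternatives the adjusted p was 0.0866 to 1.0, lowest without siWFDC21P-2 replicate 1. The pseudocount of 1 understates the difference of a gene at this low level. In limma-voom on recovered reads the value was -0.71 for both siRNAs (adjusted p = 0.172), -0.67 for siWFDC21P-1 and -0.86 for siWFDC21P-2, against -0.46, -0.44 and -0.54 on the log2(FPKM + 1) scale.

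AGO1 (35869808 to 35930528) and AGO4 (35808172 to 35857890), whose proteins bind microRNAs without being known as efficient slicers, lie beside AGO3 on the same strand of chromosome 1, in the order AGO4, AGO1, AGO3. AGO1 was 5.95, 7.75 and 4.17 FPKM in siNC, 5.21, 5.40 and 8.15 FPKM in siWFDC21P-1 and 3.99, 4.04 and 3.47 FPKM in siWFDC21P-2. It stayed at 83.3 to 105% of the siNC of its set, a log2 fold change of -0.07 ± 0.12 (limma, adjusted p = 0.8). AGO4 was 3.35, 6.06 and 6.23 FPKM in siNC, 2.30, 2.90 and 9.19 FPKM in siWFDC21P-1 and 6.74, 4.79 and 4.42 FPKM in siWFDC21P-2. It was lower in 4 of 6 libraries and stood at 152% in set 2 (141 to 163%), with a log2 fold change of -0.04 ± 0.19 (limma, adjusted p = 0.935). The 3 neighbours thus did not share a direction in set 2, where AGO3 was at 71.3%, AGO1 at 105% and AGO4 at 152% of the control.

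Summed over the 4 genes, Argonaute FPKM was 35.7, 34.4 and 37.2 in siNC, 32.6, 26.3 and 38.0 in siWFDC21P-1 and 33.5, 21.3 and 21.3 in siWFDC21P-2. The controls were alike in the 3 sets, and the sum was lower than the siNC of the set in 5 of 6 knockdown libraries, the exception being that of set 2. The share of AGO2 in the sum was 67.2%, 52.2% and 65.5% in siNC and was lower than the siNC of the set in 5 of 6, the exception being siWFDC21P-1 replicate 1 at 72.5%. Both the sum and this share were described after the values had been seen.

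**Figure D3:**
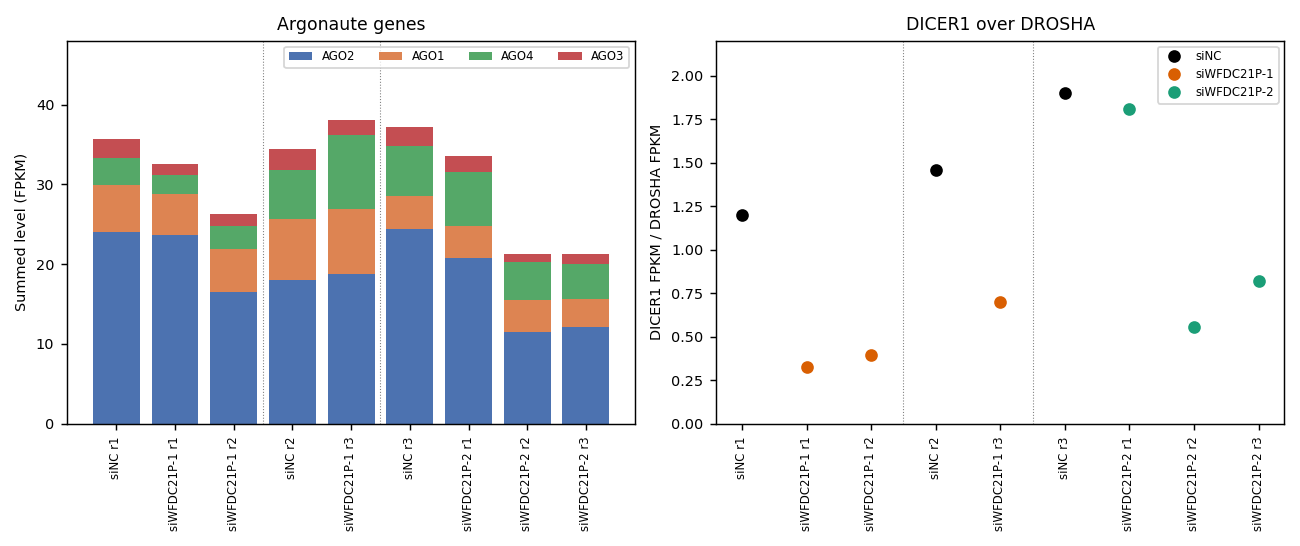
Left, summed FPKM of the 4 Argonaute genes per library (stacked bars from 0); right, the ratio of DICER1 to DROSHA FPKM per library (points, coloured by group), with dotted lines between sets. The sum is 34.4 to 37.2 FPKM in the 3 siNC libraries and 21.3 FPKM in siWFDC21P-2 replicates 2 and 3, and the ratio is 1.2 to 1.9 in siNC and 0.328 to 0.7 in siWFDC21P-1.

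TNRC6A (chromosome 16, 24610209 to 24827632, plus strand), the GW182 scaffold downstream of Argonaute, was 12.2, 11.8 and 15.5 FPKM in siNC. It was 5.79, 10.9 and 7.53 FPKM in siWFDC21P-1, below all controls, and 12.3, 16.8 and 21.2 FPKM in siWFDC21P-2, on both sides of its control. As a share of the siNC of the set it was 47.5%, 88.9% and 63.6% with siWFDC21P-1 (intervals up to 50.0%, 92.7% and 66.7%) and 79.6%, 108% and 137% with siWFDC21P-2. The log2 fold change was -0.56 ± 0.31 for siWFDC21P-1 (limma, adjusted p = 0.996) and 0.08 ± 0.39 for siWFDC21P-2 (adjusted p = 1.0). The difference between the siRNAs was -0.64 ± 0.49 (limma, adjusted p = 1.0), and cannot be told apart from one between the sets. Among the 3 GW182 genes TNRC6A gave 48.3 to 90.6% of the summed FPKM. Its paralog TNRC6B was at 1.61 to 4.09 FPKM, lower than the siNC of the set in 5 of 6 libraries. The other paralog, TNRC6C, was at 0.285 to 4.16 FPKM and higher in 5 of 6. With both siRNAs the log2 fold change of TNRC6A was -0.32 ± 0.24 (limma, adjusted p = 0.563), and leaving out 1 library moved it between -0.57, without siNC replicate 3, and -0.18, without siWFDC21P-1 replicate 1 (-0.19 without siNC replicate 1).

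**Figure D4:**
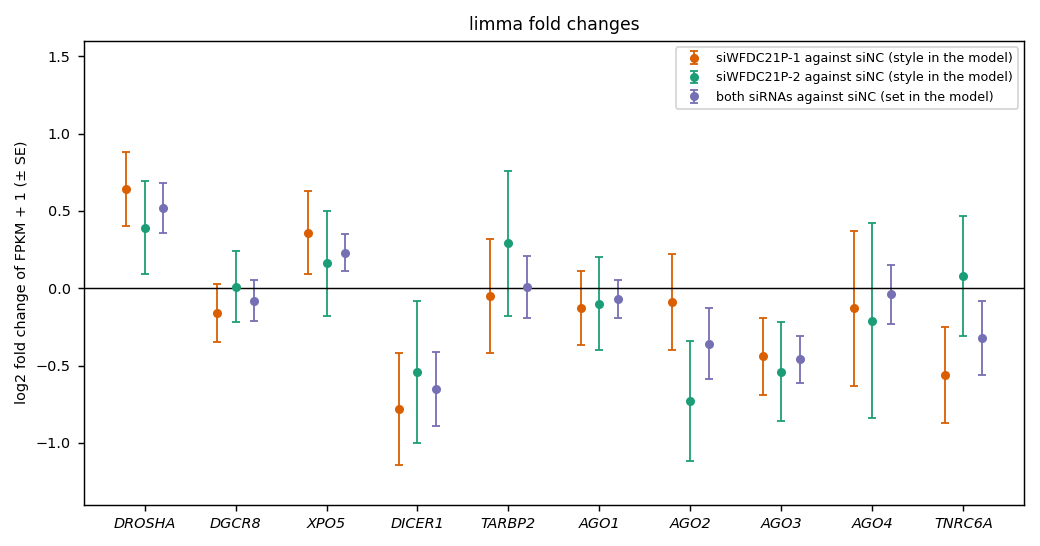
log2 fold change of FPKM + 1 from limma (y axis) with its standard error (bars) for each gene (x axis), for siWFDC21P-1, siWFDC21P-2 and both siRNAs. DROSHA (0.64, 0.39 and 0.52), DICER1 (-0.78, -0.54 and -0.65) and AGO3 (-0.44, -0.54 and -0.46) keep 1 sign over the 3 estimates. So do AGO1, AGO2, AGO4 and XPO5, and the estimate for both siRNAs comes from the same libraries as the others. None of the estimates passed the adjusted threshold.

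A wider list of 67 small RNA pathway genes outside the 10 was examined in the same fits, of which 64 were in all tables and 59 were tested. None of the 59 was called in any comparison. At an unadjusted p under 0.05 limma gave 2 higher and 3 lower for siWFDC21P-1, 1 lower for siWFDC21P-2, and 2 higher and 5 lower for both, where 5.44%, 1.46% and 14.4% of all tested genes passed in either direction. Limma-voom, with 53 of them tested, also called none. The median log2 fold change for both siRNAs was 0.00. By group it ranged from -0.27 in the 6 Dicer partners and processing genes and -0.23 in 5 precursor and microRNA turnover genes to 0.18 in the 9 Argonaute loading chaperones. Relative to the siNC of the set, 3 of the 59 were higher in all 6 knockdown libraries (KHSRP, EDC3 and GEMIN4), beside 10.8% of all tested genes, and 3 of the 59 lower (FMR1, LIMD1 and CNOT8), beside 7.92%.

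**Figure D5:**
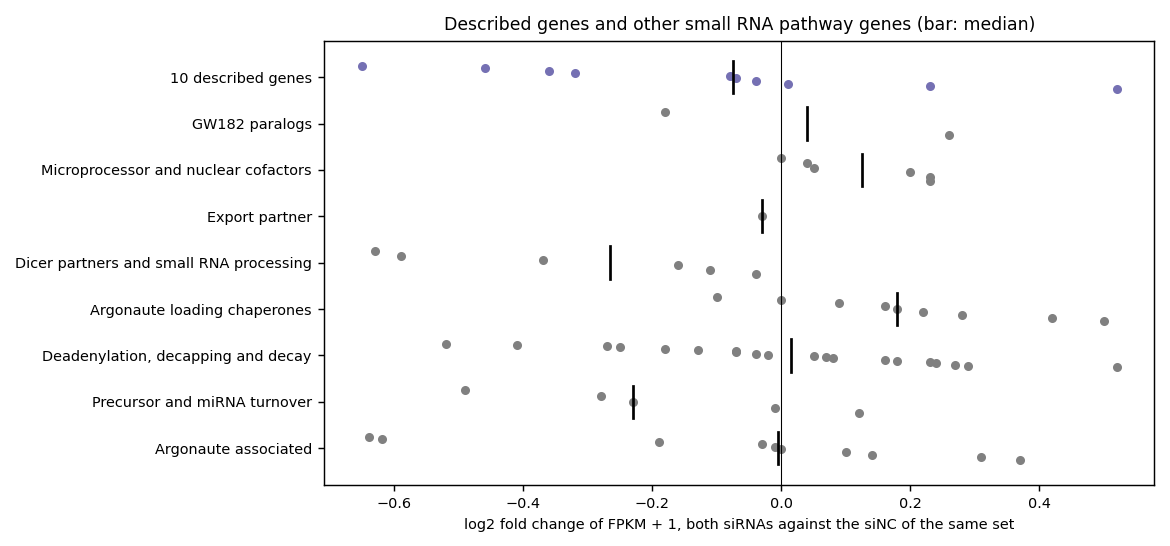
log2 fold change of FPKM + 1 for both siRNAs against the siNC of the same set (x axis) for the 10 genes and for 8 groups of other pathway genes (y axis); points are genes and bars are group medians. The medians lie between -0.27 and 0.18, and points of most groups fall on both sides of 0.

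The pathway genes with the smallest unadjusted p were named in each comparison. FMR1, an RNA-binding protein that associates with Argonaute complexes, was 10.9, 12.4 and 16.5 FPKM in siNC, 5.80, 5.63 and 8.84 FPKM in siWFDC21P-1 and 10.7, 9.69 and 12.2 FPKM in siWFDC21P-2. The siWFDC21P-1 libraries lay below every control and the siWFDC21P-2 libraries below that of their set, with a log2 fold change of -0.62 ± 0.13 for both siRNAs (limma, adjusted p = 0.151). EDC3, an enhancer of decapping, was higher in 6 of 6 (0.52 ± 0.14, limma adjusted p = 0.2), and LIMD1, a LIM domain protein found with Argonaute, was lower in 6 of 6 (-0.64 ± 0.21, adjusted p = 0.252). For siWFDC21P-1 the list added CLP1, an RNA kinase (-0.90 ± 0.23, limma adjusted p = 0.665), and SND1, a nuclease found with Argonaute (0.62 ± 0.20, adjusted p = 0.772). For siWFDC21P-2 it added DCP1A, a decapping cofactor (-1.17 ± 0.50, limma adjusted p = 1.0), and ADAR, the double-stranded RNA editing enzyme (-0.80 ± 0.59, adjusted p = 1.0).

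Over the 9 libraries, which share 3 sets and 3 controls, the genes most like DICER1 in log2(FPKM + 1) were MIB1 (Pearson's r = 0.979), VAMP2 (0.977) and ZYG11B (0.97). MIB1 was 7.33, 12.9 and 12.9 FPKM in siNC, 2.57, 4.77 and 5.18 FPKM in siWFDC21P-1 and 12.8, 3.69 and 6.64 FPKM in siWFDC21P-2, with the same exceptional siWFDC21P-2 replicate 1. The genes most like AGO2 were KDM7A (0.954), PIGA (0.95) and ZNF770 (0.939), each lowest in siWFDC21P-2 replicates 2 and 3. These are descriptions of the closest of 13014 genes over 9 values.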

How the data were processed

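The authors deposited 1 table of FPKM values per library, indexed by Ensembl gene. The submitters' processing notes list the build hg38, HTSeq 0.6.0, Bowtie2 2.2.3 and HISAT2 2.1.0 without saying which tool did which step. Hyphenated library names (siNC replicates 1 and 2, siWFDC21P-1) had 34377 genes and the others 29104. Whole reads, used for 95% Poisson and binomial intervals that cover counting error only, were recovered with GENCODE 29 exon lengths for 92.7% of common genes (within 0.02 reads), all 10 members included. Where the mean reached 1 FPKM, limma 3.58.1 (R 4.3.3) was run on log2(FPKM + 1), with the naming style in the model for each siRNA (siWFDC21P-2 then has siNC replicate 3 alone as its control) and the expression set (linkage height 0.15) for both siRNAs. The labels do not say that replicates were separate cultures, so p-values measure the spread between libraries. With the naming style in the model, this spread includes that between sets 1 and 2. All members were named, with WFDC21P, the 3 pathway genes of smallest p per comparison where none passed, and the 3 genes most like AGO2 and DICER1. Members and lists were chosen with earlier results of these data known. Ratios, sums and shares of members were described after the values had been seen. No pair of libraries was a duplicate: the smallest mean chi-square per gene was 16.9, where 1 is the value for a library deposited under 2 names.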

Additional observations from a re-analysis of the deposited data

How the results depend on the processing

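The count of machinery genes called was 0 in all 80 alternative fits (naming style or set terms, pseudocounts, filters, scalings, limma-voom, libraries left out). Most of these fits called no gene at all, and apart from 1 fit with 202 genes none called more than 14. A count of 0 of 10 is therefore near the share over all tested genes. The fits without set 2 were chosen after seeing the data. Of the fold changes under an alternative, 614 kept their sign and 34 did not. Part of the 614 could not change. Filters leave a fold change as it is, as does omitting a library of the other naming style in the fits of single siRNAs. For the difference between the siRNAs only AGO2 and TNRC6A were included. Without the style term the log2 fold change for siWFDC21P-1 was 0.07 for AGO1 and 0.66 for TARBP2, and for siWFDC21P-2 it was 0.04 for AGO4, -0.20 for DGCR8 and -1.13 for TARBP2. With sets in place of the style AGO4 was at 0.07 for siWFDC21P-1. For both siRNAs TARBP2 was at -0.24 without the set term, -0.03 with median-of-ratios scaling and -0.06 in limma-voom. DGCR8 was at -0.01 for siWFDC21P-2 with median-of-ratios scaling. Leaving out 1 library, siWFDC21P-1 values ranged over -0.31 to 0.04 for AGO1, -0.29 to 0.11 for AGO2, -0.63 to 0.22 for AGO4 and -0.41 to 0.31 for TARBP2. For siWFDC21P-2 the ranges were -0.04 to 0.05 for DGCR8 and -0.10 to 0.27 for TNRC6A, and for both siRNAs -0.24 to 0.08 for AGO4, -0.14 to 0.04 for DGCR8 and -0.17 to 0.10 for TARBP2. DROSHA (0.37 to 0.60), DICER1 (-0.76 to -0.55) and AGO3 (-0.52 to -0.41) kept their sign for both siRNAs, as did AGO2 (-0.51 to -0.13), XPO5 (0.10 to 0.30) and TNRC6A (-0.57 to -0.18). For siWFDC21P-2 alone DICER1 ranged from -0.83 to -0.25, and XPO5 for siWFDC21P-1 from 0.21 to 0.61. Without siWFDC21P-2 replicate 1, 202 of all tested genes were called for both siRNAs in place of 1, and 0 of the 10. The cause was not tested. WFDC21P in siWFDC21P-2 minus siNC was 0.31 on means of log2(FPKM + 1), and -1.78 to 1.58 FPKM without 1 library; for siWFDC21P-1 it was -4.62 to -1.25 FPKM. Same-numbered libraries deviated with r of -0.683 to 0.667 (2 of 9 over 0.1), and others with -0.76 to 0.788 (5 of 18). The largest r of either sign joined siNC replicates 1 and 2 with siWFDC21P-1 libraries, positive within a set and negative across sets. The sets thus dominate these values, which cannot show whether replicate numbers pair the libraries. With the replicate block the count of machinery genes called was 0.0 in each comparison, DROSHA was at 0.50 for both siRNAs, and the signs that turned were TARBP2 (0.0043 for siWFDC21P-1, -0.01 for both) and, for siWFDC21P-2, AGO1 (0.03), AGO4 (0.19) and XPO5 (-0.06). The siWFDC21P-2 fits with the style term could not be made without siNC replicate 3, nor the difference between siRNAs within 1 style. Depth limits TARBP2 most: 116 reads in siWFDC21P-2 replicate 1 give a 95% half-width of 18.7% of the value.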
